A study of Chlorocebus aethiops with 12 samples.

Results

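The glucocorticoid receptor NR3C1 and the co-chaperone DNAJC7 (CCRP) are the proteins that the cells of this study were made to carry from plasmids. The signals of the array's probes named for them were followed here, probe by probe. COS-1 cells, a kidney line of the African green monkey, were transiently transfected with V5-tagged mouse CCRP together with FLAG-tagged human receptor, whose tyrosine at residue 30 was changed to glutamate in one mutant (Y30E) and to phenylalanine in the other (Y30F). Dexamethasone (100 nM, DEX), a synthetic glucocorticoid, or the vehicle DMSO (0.1%) was given for 6 h, starting 40 h after transfection. The 4 groups were Y30E-DEX, Y30E-DMSO, Y30F-DEX and Y30F-DMSO, with 3 arrays each and 12 in all. Both constructs were in every group, and cells without plasmids, with 1 construct or with the unmutated receptor are not analysed here, so any rise that transfection itself gave cannot be read from these arrays. The members were all probes whose record was 1 of 5 NR3C1 isoform records or the DNAJC7 record. Of these 6 records 2 named probes of the array, NM_001018077 for NR3C1 and NM_003315 for DNAJC7, with 3 of its 41000 probes. The other NR3C1 records, NM_000176, NM_001018074, NM_001018075 and NM_001018076, named 0 probes, so no isoform can be followed apart from the rest. NR3C1 had probe A_23_P214059, printed as 10 spots per array, and probe A_24_P214754, and DNAJC7 had probe A_23_P60591, each of the last 2 with 1 spot.

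The glucocorticoid receptor is a hormone-activated transcription factor. Without hormone it is held in the cytoplasm by Hsp90 and its co-chaperones, and with hormone it enters the nucleus and raises or lowers its target genes. In many cell types the hormone also lowers the receptor's own transcript. The N-terminal part of the receptor activates transcription and the C-terminal part binds the hormone, and these parts can contact each other. The series title contrasts receptors with and without this contact, but which of the mutants has it is not given in the sources used here. DNAJC7 carries tetratricopeptide repeats, which bind Hsp70 and Hsp90, and a J domain, which stimulates Hsp70. It was named CCRP as a protein that keeps the nuclear receptor CAR in the cytoplasm.

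The probes are human, the host cells are monkey and the CCRP construct is mouse. The columns used hold neither the probe sequences nor their positions on the transcripts, so whether a probe read the plasmid's transcript, the monkey's own or both cannot be told apart. Levels are therefore compared within a probe, not between probes. Total RNA is a bulk measure, and fewer transfected cells and less RNA per transfected cell cannot be told apart either. Levels are given as the processed signal in array units, and tested as log2 signal minus the array's 75th percentile, which lay at signals of 706 to 876. Between 60.5% and 67.0% of the spots of an array were well above background. All 3 member probes were among the 25570 that passed the filter on dim probes. The arrays lay on 3 slides of 4, with the Y30E-DMSO and Y30F-DEX groups each divided between slide 2 and another slide, while no slide held both mutants under the same treatment. Whether replicates came from separate cultures is not given, and p-values then reflect only how these arrays vary, which may be technical.

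DNAJC7 fell with dexamethasone in cells with either receptor. With the Y30E receptor its signal was 26281, 24866 and 25067 on the DEX arrays, against 34524, 32143 and 37722 on the DMSO arrays. All 3 hormone-treated arrays lay below all 3 vehicle arrays. Relative to the 75th percentile the level was 5.00 ± 0.07 (log2) in Y30E-DEX and 5.47 ± 0.05 in Y30E-DMSO (SD, n = 3 each). The change was -0.47 ± 0.05 (log2, SE, limma adjusted p = 0.00118), a level 27.8% lower, with a 95% confidence interval of the fold from 0.667 to 0.783.

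With the Y30F receptor the signal of DNAJC7 was 23601, 21342 and 23567 on the DEX arrays, against 33516, 32722 and 32782 on the DMSO arrays. Again the groups did not overlap. The level was 4.81 ± 0.02 (log2) in Y30F-DEX and 5.30 ± 0.06 in Y30F-DMSO (SD, n = 3 each). The change was -0.49 ± 0.05 (log2, SE, limma adjusted p = 0.000908), a level 28.6% lower, with an interval of the fold from 0.659 to 0.774.

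Few probes behaved this way. Of all probes tested, 0.591% passed the threshold as lower with the Y30E receptor and 0.375% with the Y30F receptor, and 65 probes (0.254%) did with both, DNAJC7 among them. The median change of the probes that fell was -0.47 (log2) with Y30E and -0.44 with Y30F, and the median of all probes was -0.01 with Y30E and 0.02 with Y30F. DEX arrays lay wholly below DMSO arrays for 11.7% of probes with Y30E, for 5.69% with Y30F and for 1.61% with both. An exact permutation test took the DNAJC7 probe alone, with treatment labels exchanged within each receptor. It gave a mean change of -0.48 (log2) and a 2-sided p of 0.005, the smallest that its 400 arrangements allow. Any probe whose DEX arrays lie wholly below its DMSO arrays with both receptors gives this p. So the p adds nothing to that separation, which 1.61% of probes had. The test was chosen after seeing the data and takes no account of slide. It was 1 of 10 such tests of single values made here, and 3 arrays against 3 in 1 receptor alone cannot go below 0.1.

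**Figure D1:**
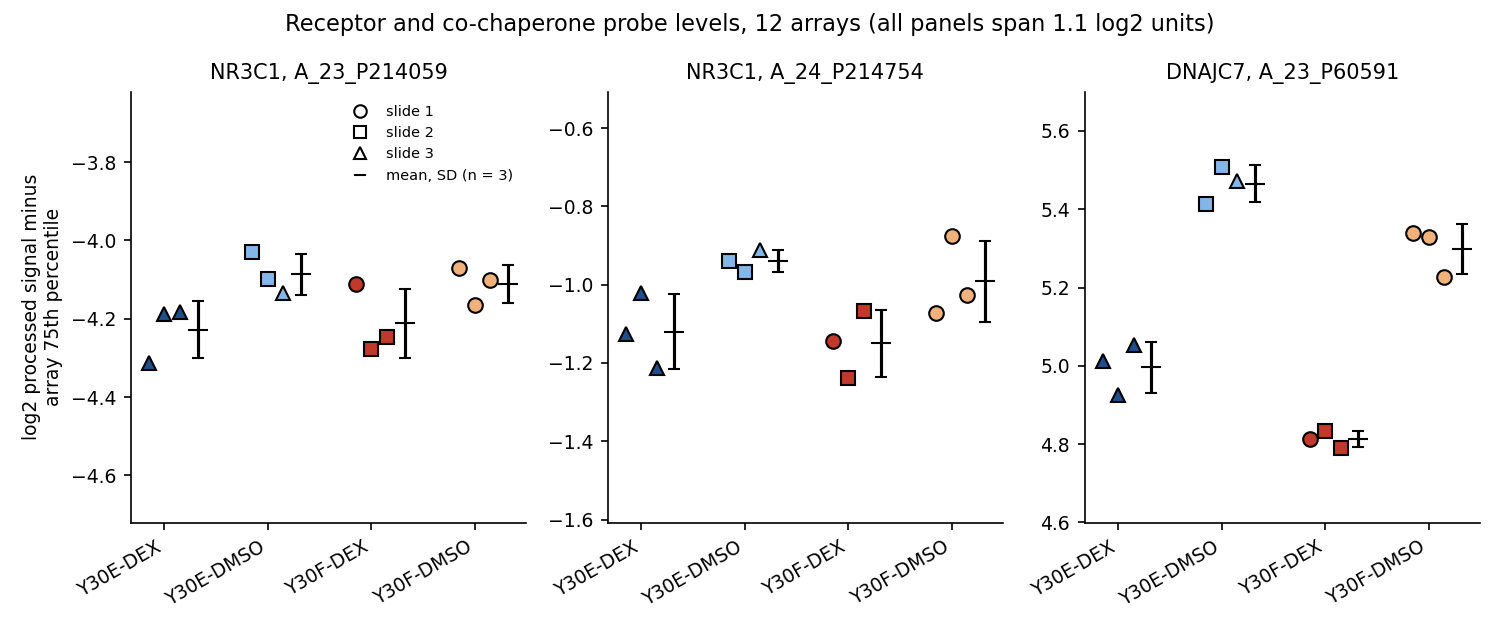
Levels of the 3 member probes (vertical axes, log2 processed signal minus the array's 75th percentile) by group, with a point per array shaped by slide and the mean with its SD (n = 3) beside it. DNAJC7 in the right panel lies lower in both DEX groups than in both DMSO groups without overlap, while the NR3C1 panels, drawn over the same span of 1.1 log2 units, show smaller steps.

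**Figure D2:**
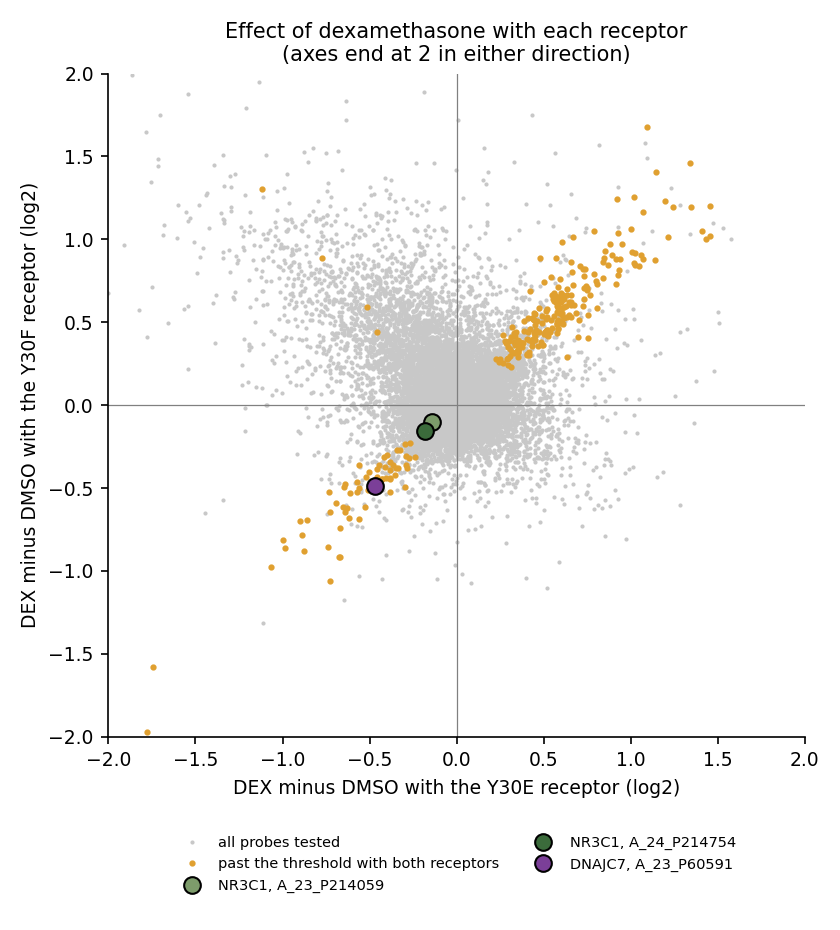
Effect of dexamethasone on each tested probe with the Y30E receptor (horizontal axis, log2) and the Y30F receptor (vertical axis, log2), with the 288 probes past the threshold with both in orange and the 3 member probes as large circles (36 probes beyond 2 on either axis are not drawn). DNAJC7 sits at -0.47 and -0.49, near the diagonal, and both NR3C1 probes lie closer to 0.

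Slides can be compared for DNAJC7 only within the groups divided between them. Within Y30E-DMSO the slide 2 arrays, at 5.41 and 5.51 (log2), averaged -0.011 from the slide 3 array at 5.47. Within Y30F-DEX the slide 2 arrays, at 4.83 and 4.79, averaged -0.0022 from the slide 1 array at 4.81. So few arrays do not bound an offset between slides, and no group lay on both slide 1 and slide 3. On slide 3 alone the change with Y30E was -0.48 and on slide 1 alone the change with Y30F was -0.48 (log2). These sizes rest on 1 Y30E-DMSO array and 1 Y30F-DEX array, and with so few arrays the threshold was missed in both (limma adjusted p = 0.240 with Y30E and 0.346 with Y30F, the single array being assumed to vary like the others). With slide as a fixed block both changes passed narrowly (limma adjusted p = 0.0440 with Y30E and 0.0494 with Y30F).

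The scanner reads bright spots from a second scan of low gain, and DNAJC7 was read from it on 11 of 12 arrays, Y30F-DEX replicate 2 being the exception. No spot of a member was saturated. The 1159 tested probes read at low gain on all arrays had a median change of 0.03 (log2) with either receptor. With Y30E 4 of them fell and 7 rose (0.949%, against 1.98% of all probes). With Y30F 3 fell and 5 rose (0.69%, against 1.65%). DNAJC7 is not among these probes, and how a change of gain between compared arrays acts on a probe was not tested. The software's own error estimate for the DNAJC7 spot was 10.0% of its signal on each array.

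**Figure D3:**
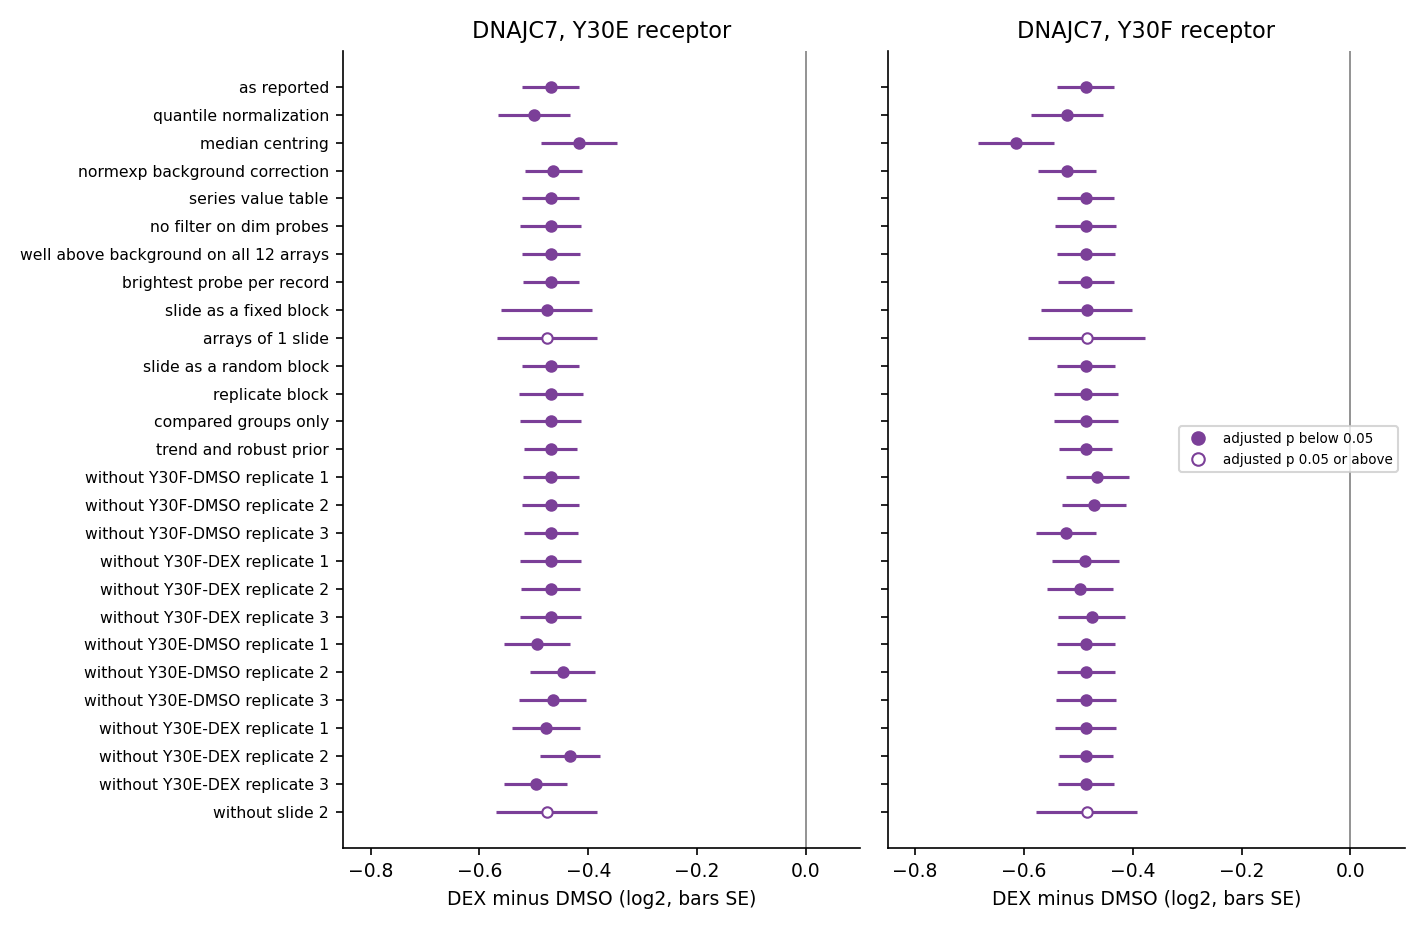
Change of DNAJC7 with dexamethasone (horizontal axes, log2, bars SE) with the Y30E receptor on the left and the Y30F receptor on the right, as reported and under each alternative processing. The change stays between -0.61 and -0.42 throughout, and open circles mark the fits on 1 slide or without slide 2, where the adjusted p was 0.05 or above.

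The receptor's own probes moved less. A_24_P214754 had signals of 373.2, 403.2 and 326.1 in Y30E-DEX, against 422.1, 361.0 and 451.4 in Y30E-DMSO, which overlap as signals and did not overlap once scaled to the 75th percentile. It had 379.9, 317.4 and 406.0 in Y30F-DEX, against 393.6, 443.3 and 429.7 in Y30F-DMSO, and these groups overlapped. Scaled levels of DEX and DMSO that do not overlap, in either direction, were found for 22.3% of all probes with Y30E and for 15.3% with Y30F. The scaled level was -1.12 ± 0.10 (log2) in Y30E-DEX and -0.94 ± 0.03 in Y30E-DMSO, and -1.15 ± 0.09 in Y30F-DEX and -0.99 ± 0.10 in Y30F-DMSO (SD, n = 3 each). The changes were -0.18 ± 0.07 with Y30E and -0.16 ± 0.07 with Y30F (log2, SE), both short of the threshold (limma adjusted p = 0.292 and 0.380). The intervals of the fold ran from 0.792 to 0.983 with Y30E and from 0.804 to 0.998 with Y30F.

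A_23_P214059, the other receptor probe, was dim. All 120 of its spots were well above background, at 30.4 to 60.3 units without the 9 spots flagged as outliers. The 95th percentile of the negative control spots lay at 5.15 to 11.9 units, and the lowest signal well above background on any array at 17.5 to 26.0 units. The SD among its spots on 1 array was 0.10 to 0.25 (log2), with a median of 0.14, and the standard error of an array's mean over its spots had a median of 0.04, against a pooled SD between arrays of 1 group of 0.07. The mean over spots was 41.0, 44.9 and 41.6 units in Y30E-DEX, against 49.6, 41.2 and 48.4 in Y30E-DMSO. It was 48.5, 38.6 and 44.8 in Y30F-DEX, against 49.3, 45.4 and 51.1 in Y30F-DMSO. The signals overlapped with both receptors, and the scaled levels did so with Y30F alone. The changes were -0.14 ± 0.06 with Y30E and -0.10 ± 0.06 with Y30F (log2, SE, limma adjusted p = 0.339 and 0.533).

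**Figure D4:**
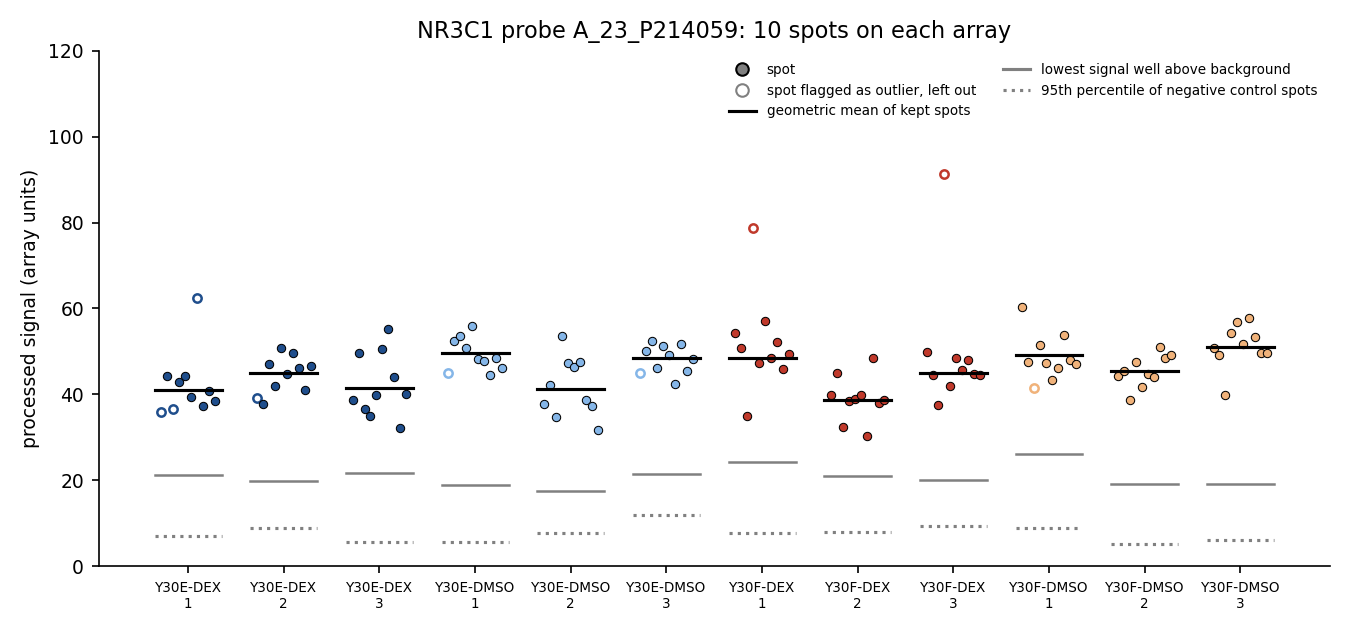
Processed signal (vertical axis, array units) of the 10 spots of receptor probe A_23_P214059 on each array, in 4 groups of 3, with outlier spots open, the geometric mean of the kept spots as a black line, and grey lines for the lowest signal well above background and the 95th percentile of negative controls. All spots lie above both grey lines, and the arrays' means lie between 38.6 and 51.1 units.

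Thus 0 of 2 NR3C1 probes passed the limma test with either receptor, where 1.98% of all probes did with Y30E and 1.65% with Y30F, in either direction. These counts of 506 (Y30E) and 421 (Y30F) probes ranged from 220 to 667 and from 252 to 1488 when 1 array was left out. The 667 was without Y30E-DMSO replicate 3 and the 1488 without Y30F-DEX replicate 1. Each is the only array of its group on the slide of the other treatment, so without it treatment and slide cannot be told apart. At an unadjusted p below 0.05, 2 of 2 NR3C1 probes passed with Y30E and 1 of 2 with Y30F. Of all 25570 probes, 3561 did with Y30E and 3298 with Y30F. Averaged over both receptors, the change was -0.17 (log2, 11.1% lower) for A_24_P214754 and -0.12 (8.02% lower) for A_23_P214059. Exact permutation tests within receptor gave 2-sided p-values of 0.01 and 0.015 for these averages, unadjusted. These tests were chosen after seeing the data and take no account of slide. They were not run on all probes, so the share of probes that would reach such p-values is not known. The size for the dim probe depended on the processing: with Y30F it was 0.00 after normexp background correction and -0.29 after quantile normalization. On slide 3 the change with Y30E was -0.10 (log2) for A_23_P214059 and -0.21 for A_24_P214754, and on slide 1 the change with Y30F was -0.00 and -0.15.

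Whether the hormone acted differently with the 2 receptors was tested by subtracting the Y30F effect of dexamethasone from the Y30E effect. For DNAJC7 this was 0.02 ± 0.07 (log2, SE), with a 95% interval from -0.15 to 0.18. For A_24_P214754 it was -0.02, from -0.24 to 0.20, and for A_23_P214059 it was -0.04, from -0.23 to 0.15. No probe of the array passed this comparison (limma, 0%, with 2777 of 25570 at an unadjusted p below 0.05), and none of the 3 members was below that level. The 0 depended on single arrays: 1262 probes passed once Y30F-DEX replicate 1 was left out, 138 once Y30E-DMSO replicate 3 was, and 1 once Y30E-DEX replicate 3 was, and 0 of 3 members passed in each of these fits. The bound of these intervals farthest from 0 was a 1.18-fold lower effect, for A_24_P214754.

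The mutants were then set against each other under the same treatment, to see whether the signals of the receptor probes were alike. Whether these signals hold the transfected receptor's transcript is not known, so they do not give the level of the transfected receptor. Under DMSO the Y30E minus Y30F difference was 0.05 ± 0.07 (log2, SE) for A_24_P214754 and 0.02 ± 0.06 for A_23_P214059. Under dexamethasone it was 0.03 ± 0.07 and -0.02 ± 0.06. The limma adjusted p-values were 0.820, 0.918, 0.889 and 0.933 in that order. As folds, the 95% intervals of the limma differences ran from 0.931 to 1.15 and from 0.926 to 1.12 under DMSO, and from 0.917 to 1.14 and from 0.900 to 1.09 under dexamethasone. Under DMSO some alternative processing fell outside them. There A_23_P214059 ran from -0.23 to 0.20 (log2), beyond its interval of -0.11 to 0.16. A_24_P214754 ran from -0.13 to 0.11, with an interval of -0.10 to 0.21. The directions of the mutant differences are not settled. Quantile normalization turned that of A_23_P214059 under either treatment, and normexp and the slide block turned those of both probes under dexamethasone. Median centring moved the median of all probes by -0.18 (log2) under DMSO, which made both differences negative. Relative to that median A_23_P214059 lay at 0.01 and A_24_P214754 at 0.04. These values are the same in both scalings by arithmetic, since each subtracts a single value per array, so they do not settle the direction. The intervals leave out offsets between slides, and mutant and slide cannot be told apart within a treatment.

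DNAJC7 was somewhat higher in the Y30E groups, by 0.17 ± 0.05 (log2, SE) under DMSO and 0.18 ± 0.05 under dexamethasone, or 1.12-fold and 1.14-fold. These differences did not pass (limma adjusted p = 0.238 and 0.232, unadjusted p = 0.00952 and 0.00542), although in both treatments the 3 Y30E arrays lay above the 3 Y30F arrays on the scaled level. That separation, in either direction, was seen for 19.3% of probes under DMSO and 20.6% under dexamethasone, and 0.00782% and 0% of probes passed (2 and 0 probes, or 605 and 73 without Y30F-DEX replicate 1). The Y30E arrays lay above the Y30F arrays under both treatments for 1.34% of probes. An exact permutation test of DNAJC7, with mutant labels exchanged within each treatment, gave a mean difference of 0.17 (log2) and a 2-sided p of 0.005, unadjusted. That is the smallest p its 400 arrangements allow, and the same p as for the dexamethasone effect. It follows from the Y30E arrays lying above the Y30F arrays under both treatments, and adds nothing to that separation. The test takes no account of slide. No slide held both mutants under the same treatment, so slide and mutant cannot be told apart within a treatment here either. A slide block separates them only through the groups divided between slides, and only if a slide's offset is alike in all groups. Median centring gave -0.02 under DMSO, where the median of all probes stood at -0.17, so that DNAJC7 lay 0.15 above that median. That distance is the same without the centring by arithmetic, and is no separate evidence.

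**Figure D5:**
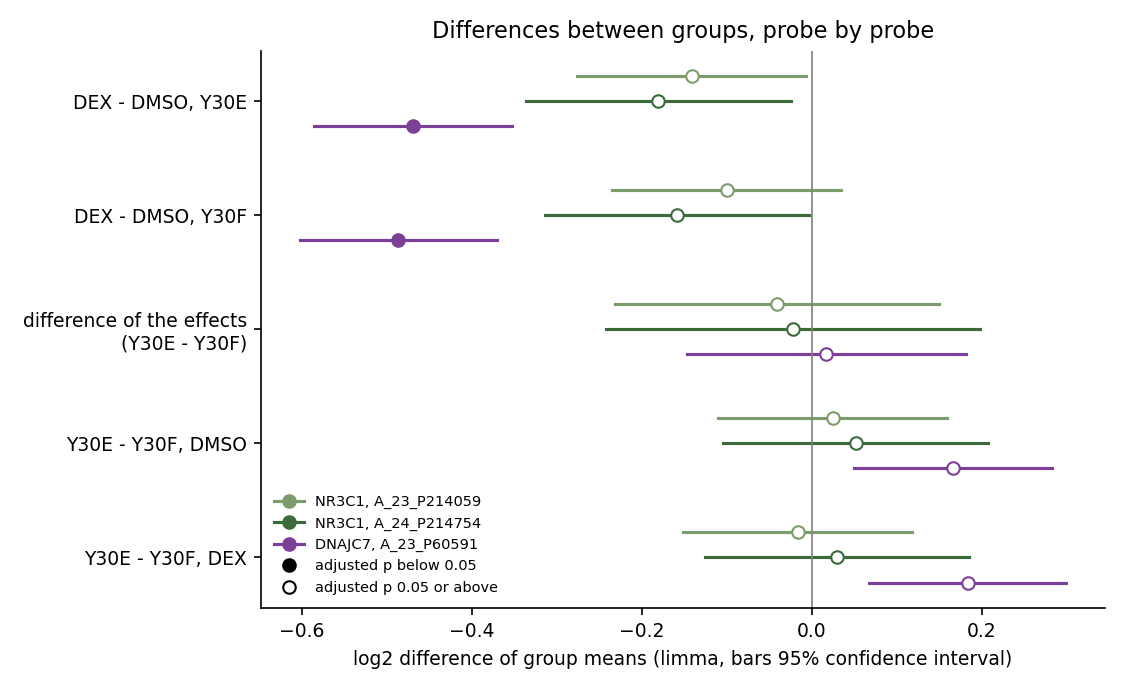
Differences between groups (horizontal axis, log2, limma) for each member probe in the 5 comparisons, with 95% confidence intervals as bars and filled circles where the adjusted p was below 0.05. The only filled circles are those of the dexamethasone effect on DNAJC7, at -0.47 (Y30E) and -0.49 (Y30F), and the receptor probes differ by -0.02 to 0.05 between the mutants.

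The 2 genes can also be set against each other within an array, where the scaling between arrays drops out. The log2 difference of DNAJC7 and A_24_P214754 lay between 5.95 and 6.26 in Y30E-DEX and between 6.35 and 6.48 in Y30E-DMSO. It lay between 5.86 and 6.07 in Y30F-DEX and between 6.21 and 6.41 in Y30F-DMSO. The 2 probes hybridise differently, so this difference is no ratio of transcripts, and its change with treatment is what can be read. That change was -0.29 (log2) with Y30E and -0.33 with Y30F, and against A_23_P214059 it was -0.33 with Y30E and -0.39 with Y30F. The exact permutation p (2-sided, within receptor, unadjusted) was 0.005 against either receptor probe, the smallest possible. That p follows from DEX and DMSO differences that did not overlap with either receptor. It rests on the same DNAJC7 values as the test of DNAJC7 alone, so it is no separate evidence. The test was chosen after seeing the data and takes no account of slide. Between the mutants, Y30E minus Y30F averaged over treatments was 0.13 (log2) against A_24_P214754 and 0.17 against A_23_P214059. The exact permutation p (2-sided, within treatment, unadjusted) was 0.07 and 0.015 for these. DNAJC7 is far brighter than both receptor probes, and whether probes of such different brightness follow a change with the same slope was not tested, so these values describe probes and not the 2 genes.

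Across the 12 arrays the 2 receptor probes had a Pearson r of 0.51 (permutation p = 0.0918) and a Spearman rho of 0.42 (p = 0.176). Without the 2 arrays farthest from the median of A_23_P214059 r was 0.25, over a range that this choice narrows. It was 0.50 with slide means removed and -0.15 with group means removed. No relation between the probes was shown.

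By the likeness of their levels over the 12 arrays, among 17903 other records with 1 probe each, NM_006806 and NM_007350 were nearest to A_24_P214754, at r = 0.95 and 0.93, and 0.96 and 0.93 with slide means removed. NM_000641 and NM_182898 were nearest to DNAJC7, at r = 0.96 for both, and 0.97 for both with slide means removed. The files do not pair these records with gene names. With dexamethasone NM_006806 differed by -0.15 with Y30E and -0.13 with Y30F, and NM_007350 by -0.27 with both (log2, limma adjusted p from 0.129 to 0.527). NM_000641 differed by -0.38 with Y30E and -0.44 with Y30F, and NM_182898 by -0.52 with Y30E and -0.43 with Y30F (log2, limma adjusted p from 0.00139 to 0.0415). The records were chosen for their likeness over these same arrays, so a difference like that of the member follows from the choice. These values describe points that share arrays, slides and treatment.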

How the data were processed

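Cy3-labelled cRNA from 500 ng of total RNA of each sample went to its own array, of a human design with 4 arrays per slide, per the labels' protocols. The deposited intensity, made by the authors with Feature Extraction 12.0.0.7, had its background subtracted within each array and was not scaled between arrays, per the file headers. Deposited columns for spot flags, the error of the signal, and the median and background intensity were also used. The series value table differed from the scanner files in 0 spots. One label lists a single construct per mutant, and the descriptions, which list both, were followed.

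Of 45015 spots per array 1639 controls were left out, as were outlier spots. Spots of a probe were averaged as log2 signal minus the array's 75th percentile. Probes were tested if, in some group, every array had a share of 0.5 or more of the probe's spots well above background. limma 3.58.1 (R 4.3.3) fitted 4 group means to all 12 arrays, with Benjamini-Hochberg adjustment over all 25570 probes and a threshold of 0.05, and statmod 1.5.0 served the random block. Probes past the threshold are said to have risen or fallen. The fit was also run on simulated data with independent noise on each array and no offsets between slides, so effects of slide were not covered. All probes of the member records are named. Genes with a like pattern were to be 3 with a symbol, and since the files give record IDs without names, 2 IDs per gene are given. For the same reason the planned lists of chaperones, coregulators, other receptors, import and hormone response genes, and the check of cell type markers, were not applied. Replicate numbers did not pair the arrays (correlations of same-numbered deviations from -0.038 to 0.032). Members and lists were chosen with earlier results of these data known. Alternatives covered scaling, background, filter, probes per record, slide, replicate block, compared groups, variance prior and each array. Leaving out slide 2 and the permutation tests were chosen after seeing the data.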

Additional observations from a re-analysis of the deposited data

How the results depend on the processing

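Of 3 member probes 1, DNAJC7, passed in each dexamethasone comparison. This number was 0 on slide 3 (Y30E) or slide 1 (Y30F) alone and without slide 2, where fewer arrays remain, and stayed 1 when any 1 array was left out. DNAJC7 changed by -0.50 to -0.42 (log2) over 26 alternatives with Y30E and by -0.61 to -0.47 with Y30F. Many of these cannot alter the estimate, such as the filters, the replicate block, the variance prior and left-out arrays of the other receptor. With Y30F the fixed slide block, slide 1 alone and the fit without slide 2 all gave the same -0.48. No member passed in the other 3 comparisons under the alternatives run. The replicate block changed no call of a member (DNAJC7 limma adjusted p = 0.00771 with Y30E and 0.00669 with Y30F), and 0 of 12 arrays correlated best with their own number.

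Signs of uncalled differences (log2) turned as follows, and the cause was not tested. With normexp, A_23_P214059 was 0.00088 for the Y30F effect and 0.016 for the mutants under dexamethasone, and A_24_P214754 was -0.025 there. With quantile normalization A_23_P214059 was 0.25 for the difference of effects, -0.23 for the mutants under DMSO and 0.012 under dexamethasone, and A_24_P214754 was 0.0016 for the difference. Median centring moved the median of all probes by -0.13 for the Y30F effect, 0.18 for the difference of effects and -0.18 for the mutants under DMSO. Differences relative to that median cannot change, since both scalings subtract a single value per array. With the centring the difference of effects was 0.14 and 0.16 for the receptor probes. The mutants under DMSO then differed by -0.16, -0.13 and, for DNAJC7, -0.018. With the fixed slide block the receptor probes differed by 0.10 and -0.0076 between mutants under dexamethasone, and without slide 2 A_23_P214059 was -0.021 under DMSO. With 1 array left out, the difference of effects ranged from -0.074 to 0.0086 (A_23_P214059), -0.080 to 0.024 (A_24_P214754) and -0.011 to 0.054 (DNAJC7). The mutants then ranged from -0.0046 to 0.048 under DMSO (A_23_P214059), and under dexamethasone from -0.049 to 0.033 (A_23_P214059) and -0.019 to 0.076 (A_24_P214754).

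Counts over all probes moved more. With Y30E 506 became 59 (slide 3) to 667 (Y30E-DMSO replicate 3 left out), and 229 with the slide block. With Y30F 421 became 7 (slide 1) to 1488 (Y30F-DEX replicate 1 left out), and 150 with the slide block. The 0 for the difference of effects reached 1262 and the 0 for the mutants under dexamethasone 73, both with Y30F-DEX replicate 1 left out. The 2 under DMSO reached 1447 with median centring. The number of arrays limits what can be detected, and all spots of the members were well above background.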
